A study of Bos taurus with 24 samples.

Results

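The season difference in the maturation change was calculated for each gene as the change from GV to MII oocytes in summer minus the change from GV to MII oocytes in spring. A germinal vesicle (GV) oocyte is arrested in prophase of meiosis with an intact nucleus, and a metaphase II (MII) oocyte has completed the first meiotic division and can be fertilized. The contrast addresses whether oocytes collected in the hot season alter their RNA during maturation in another way than oocytes collected in spring. Its members are the 9526 of 11306 genes of the deposited table with a value over 0.1 FPKM (fragments scaled by exon length and library size) in at least 1 of the 24 libraries. At the edge of this filter, APBA2 reached 0.10023 FPKM and was tested, and CA14 reached 0.09997 FPKM and was not.

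Oocytes of non-lactating and non-pregnant Angus-based crossbred cows (Bos taurus) were aspirated by ovum pick-up in May (spring) and in July (summer), and each of the 4 groups, spring GV, summer GV, spring MII and summer MII, had 6 libraries. GV oocytes were taken without culture, and MII oocytes came from cumulus-oocyte complexes matured in vitro with follicle stimulating hormone and fetal bovine serum. Cumulus cells were stripped with hyaluronidase and vortexing in all groups. The methods describe pools of 4 oocytes, each pool from 1 animal, where the sample labels speak of single cells. The same group of cows was aspirated in both months, and the complexes of each cow were split between GV use and maturation. Pools of different groups can therefore come from the same cow. Whether a replicate number marks the same cow at both stages is not given in the sources used here. No animal was kept at a set temperature, and each season is 1 calendar month, so season and collection date cannot be told apart.

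A fully grown oocyte makes almost no new RNA. During maturation its stored maternal transcripts are degraded, or gain or lose poly(A) tail and with it translation, and the surviving transcripts serve the embryo until its own genome is switched on. The libraries were built from mRNA captured and amplified with a Smart-seq2 kit, so a level here is the share of a transcript among the captured mRNA of a pool. The methods give 4 oocytes to every pool. For cumulus cells left in a pool, fewer cells and less RNA per cell cannot be told apart.

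The table lists no counts, and every column adds up to 86768.2 or just under it. A relative depth was taken from the steps between low values, with the median library set to 1. Spring GV replicate 6 had 0.0702, spring MII replicate 6 had 0.185 and summer GV replicate 2 had 0.488. Summer GV replicates 3 and 5 reached 2.72 and 8.08, and the other 19 libraries lay between 0.673 and 1.32. All 10 oocyte markers in the table were above the lowest value of 0.01 FPKM in every library, with summed levels of 824 to 2230 FPKM in GV pools and 1443 to 1852 FPKM in MII pools. The 28 markers of cumulus and granulosa cells summed to between 28.0 and 591 FPKM per library, and the highest sum of each group was found in spring GV replicate 6 (591 FPKM), summer GV replicate 2 (126 FPKM), spring MII replicate 6 (163 FPKM) and summer MII replicate 6 (86.1 FPKM). The 3 libraries of low depth thus also had the highest marker sums of their groups. KRT8, KRT18 and STAR reached 32.9, 34.4 and 64.3 FPKM in summer GV and 43.7, 70.8 and 40.0 FPKM in spring MII libraries. VIM and INHA stayed at or under 1.09 and 0.835 FPKM in these groups, against highest values of 75.7 and 37.2 FPKM in spring GV libraries. The sums are therefore no measure of cumulus cells alone. The part of depth and of cumulus RNA in the results below was not tested, but values without these libraries are given for each gene that lost its call without them.

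The median gene had nearly the same change from GV to MII oocytes in both seasons. The difference had a median of -0.03 on the log2(FPKM + 1) scale over the 9526 genes, an SD of 0.26 across genes, and 5th and 95th percentiles of -0.48 and 0.31, while the median standard error of a gene was 0.24. At an unadjusted p under 0.05 together with a difference over 2-fold, the thresholds the study used, limma called 20 genes (0.21% of the genes tested). In 17 of them (0.178%) the change was lower in summer than in spring, and in 3 (0.0315%) it was higher. An unadjusted p under 0.05 alone was reached by 171 genes (1.8%), 143 lower (1.5%) and 28 higher (0.294%), where 5% would be reached if no gene differed. After Benjamini-Hochberg adjustment limma left 0 genes (0.0%), with a smallest adjusted p of 0.9998. Regardless of p, 60 genes lay past 2-fold, 41 lower and 19 higher. A negative difference of any size was found in 5514 genes (57.9%), and in 65.0% of the 3665 genes with a mean of at least 1 FPKM. Counts of negative differences in the gene lists below are to be read beside these shares.

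The excess of lower differences depended on the scaling of the libraries. Median-of-ratios scaling, which sets each library by its median ratio to the mean library, shifted the median of all genes from -0.03 to 0.03, called 12 genes of which 8 were higher and 4 lower, and gave 97 higher and 85 lower genes at p under 0.05. Quantile normalization moved the median to 0.01, with 3 higher and 12 lower calls and 68 higher against 121 lower genes at p under 0.05. Of the 20 genes called on the deposited values, 7 were called with median-of-ratios scaling and 14 with quantile normalization, and all 20 kept the sign of their difference under both. The 7 were DKC1, ZNF830, MVP, RNF148, MAPRE2, C15H11orf96 and MIR10B. Of the other 13, 8 kept a p under 0.05 and fell under 2-fold, and TUBG1, TMEM205, CRH, DNTTIP2 and DDX24 had a p over 0.05. Quantile normalization lost DNTTIP2 by p and MESDC2, DNAJC9, IK, CENPF and GCC2 by size. Lower calls thus outnumbered higher calls on the deposited and the quantile-normalized values, and not after median-of-ratios scaling.

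**Figure D1:**
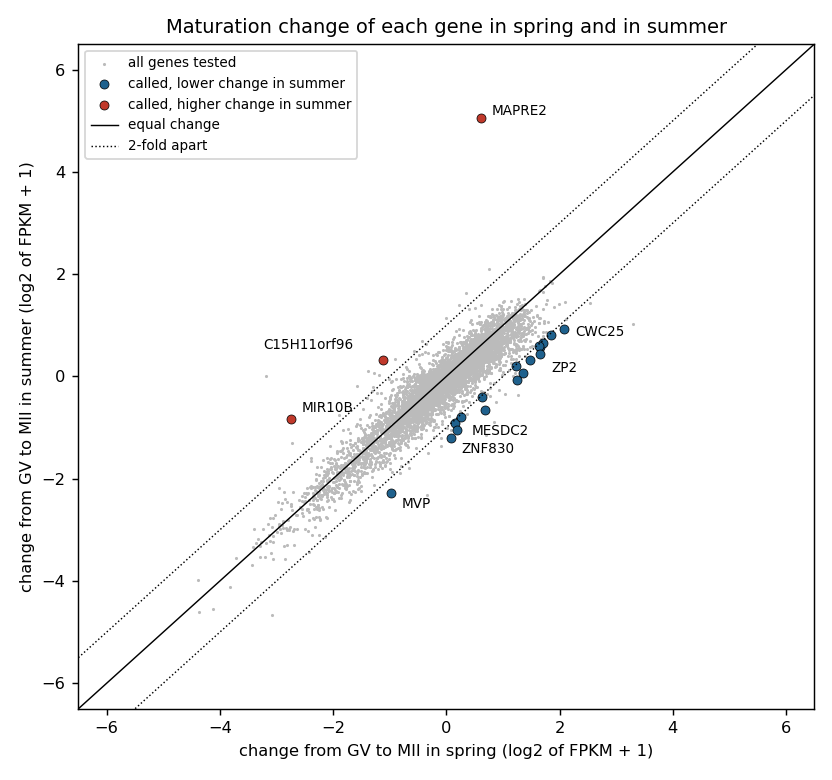
Change from GV to MII oocytes in spring (x axis) and in summer (y axis) on the log2(FPKM + 1) scale, 1 point per gene for 9526 genes. The points lie along the solid line of equal change, the 17 called genes with a lower change in summer (blue) lie past the lower dotted line and the 3 with a higher change (red) past the upper one.

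Genes with the largest changes during maturation had similar median changes in both seasons. The 210 genes whose change, averaged over the seasons, was below -2 had a median change of -2.33 in spring and of -2.42 in summer. Of them 1 (0.476%, against 1.8% of all genes) had a p under 0.05. The 628 genes with an average change between -2 and -1 had medians of -1.35 in spring and -1.42 in summer, with 4 genes (0.637%) at p under 0.05. In the 267 genes whose average change was above 1, the median was 1.26 in spring and 1.08 in summer. Of these genes 72.7% had a negative difference, against 57.9% of all genes and 65.0% of those with a mean of at least 1 FPKM. A p under 0.05 was found for 14 (5.24%, against 1.8% of all genes and 2.18% of those of at least 1 FPKM). Of the 267, 7 were called, where 0.21% of all genes were. All 20 called genes were among the 3665 genes with a mean of at least 1 FPKM. The median difference of these 267 genes was -0.15 on the deposited values, -0.12 without the 3 libraries of low depth and -0.10 after quantile normalization, but 0.07 after median-of-ratios scaling, so its direction turned with the scaling.

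How large a season difference could have gone unseen is shown by the 95% interval of each gene. The whole interval lay within 2-fold, that is between -1 and 1, for 6867 genes (72.1%). Most of these were low genes, whose differences a pseudocount of 1 compresses: 94.9% of the 5861 genes with a mean under 1 FPKM were bounded in this way. Among the 3665 genes with a mean of at least 1 FPKM, 1307 (35.7%) were, with a median standard error of 0.42 and a median half-width of 0.87. For genes between 5 and 20 FPKM the share was 22.8%, and for the 112 genes of 100 FPKM or more it was 31.3%. For most of the well expressed genes, the intervals thus extended past a 2-fold season difference.

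**Figure D2:**
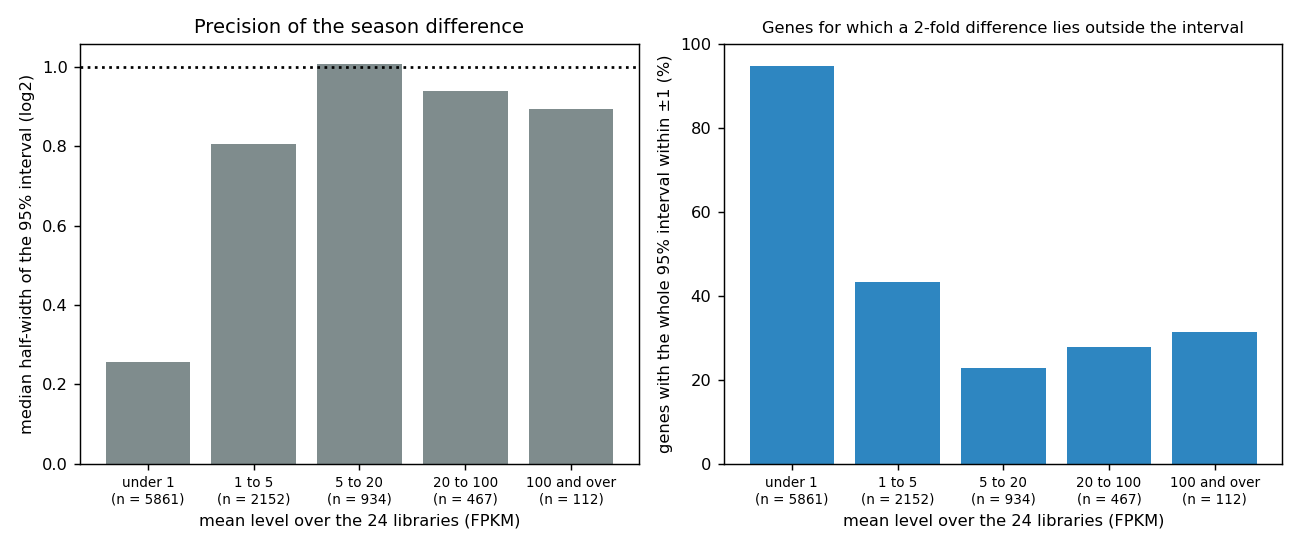
Median half-width of the 95% interval of the season difference (left, log2 scale, dotted line at 2-fold) and percentage of genes whose whole interval lies between -1 and 1 (right), by mean level over the 24 libraries in FPKM. The percentage drops from 94.9% under 1 FPKM to 22.8% between 5 and 20 FPKM.

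All 20 called genes had a mean over 1 FPKM. The 17 with a lower change shared 1 shape: their mean log2 level was higher in summer than in spring in GV oocytes and lower in summer than in spring in MII oocytes. In 9 of them the mean log2 level was higher in MII than in GV oocytes in both seasons, by less in summer, in MVP it was lower in MII oocytes in both seasons, and in the other 7 it was higher in MII oocytes in spring and lower in MII oocytes in summer. These genes were selected by the contrast itself, so the shape is a description of the selection. In the values that follow, triplets are the lowest, the median and the highest of the 6 libraries of a group. Differences are summer change minus spring change on the log2(FPKM + 1) scale. The permutation test reassigned the seasons within each stage in every possible way, two-sided. Its p is exact where season has no effect at either stage, and not where season has an equal effect at both. The test also took the pools as independent.

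**Figure D3:**
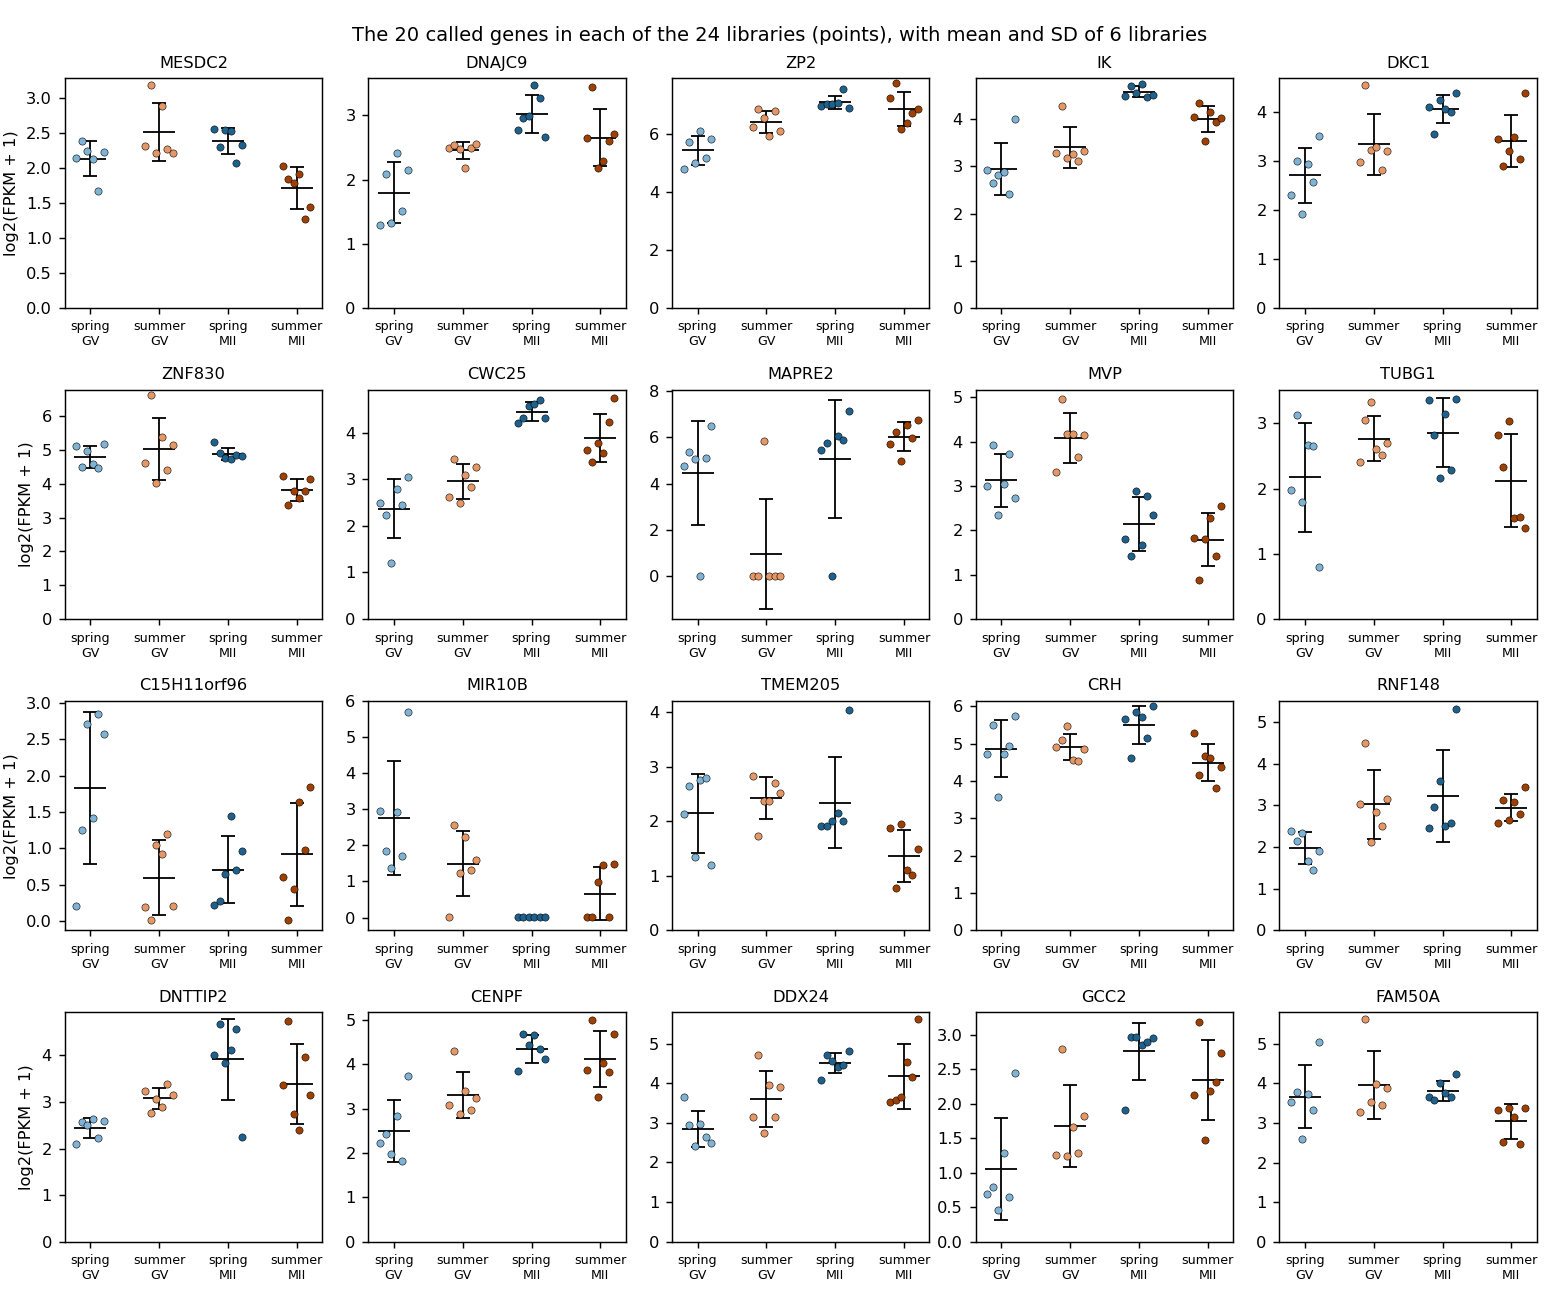
Levels of the 20 called genes on the log2(FPKM + 1) scale in the 6 libraries (points) of spring GV, summer GV, spring MII and summer MII oocytes, with the mean and SD of each group, in order of p. In 17 panels the summer GV mean lies above and the summer MII mean below that of spring, while the points of the seasons mostly overlap, and MAPRE2, C15H11orf96 and MIR10B have a higher change in summer.

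Among the genes of the egg coat, ZP2 (chromosome 25, 19228385 to 19240186 on UMD3.1.1), a zona pellucida glycoprotein to which sperm bind, was called. Its levels were 26.8, 43.3 and 66.7 FPKM in spring GV oocytes and 118, 129 and 185 FPKM in spring MII oocytes, with no overlap between the stages. In summer they were 59.6, 83.03 and 115 FPKM in GV oocytes and 70.00, 109 and 216 FPKM in MII oocytes, and these ranges overlapped. The spring change was 1.65 and the summer change 0.44, a difference of -1.21 (SE 0.37, limma p = 0.00347, exact permutation p = 0.00586). It kept a p under 0.05 in all 36 alternative settings, between -1.40 and -0.95. ZP4, another zona glycoprotein, had medians of 37.1 and 68.9 FPKM in spring GV and MII oocytes and of 61.9 and 59.4 FPKM in summer, a difference of -0.95 (limma p = 0.0445, exact permutation p = 0.0456) that was under the 2-fold threshold and had a p over 0.05 in 15 of 36 alternative settings. For ZP3, the other zona gene on the list, the difference was -1.17 (95% interval -2.74 to 0.41, limma p = 0.138, exact permutation p = 0.152), and 1 summer GV library at 572 FPKM stood above a group median of 89.7 FPKM.

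The oocyte growth factors that act on the surrounding cumulus cells did not pass the threshold. GDF9 averaged 106 ± 77.9 FPKM (SD, n = 6) in spring GV, 160.3 ± 109 in summer GV, 106 ± 71.4 in spring MII and 124 ± 78.98 in summer MII oocytes. These SDs are close to the size of the means, and the difference of -0.39 had a 95% interval of -1.80 to 1.02. BMP15 averaged 10.8 ± 7.10, 14.1 ± 6.86, 26.8 ± 10.7 and 22.8 ± 13.9 FPKM in the same order, a difference of -0.75 (95% interval -1.98 to 0.47). Of the 9 genes for oocyte growth factors and the zona pellucida, 6 (66.7%, against 57.9% of all genes) had a negative difference. The median was -0.39 against -0.03 for all genes and -0.11 for genes of at least 1 FPKM, and 2 (22.2%, against 1.8% of all genes) had a p under 0.05. In a list of 9 the median is a single gene's value. On the deposited values, after quantile normalization (-0.53) and without the libraries of low depth (-0.14) that gene was GDF9. After median-of-ratios scaling the median was -0.25, where GDF9 had -0.12. The negative medians are therefore no evidence of a shift shared by the list. The list also holds FGF8 and TBX2, with means of only 0.04 and 0.03 FPKM.

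Maternal effect genes, whose products stored in the egg support the early embryo, mostly had small negative differences, and 2 of 19 (10.5%, against 1.8% of all genes) had a p under 0.05. NPM2, the nucleoplasmin that remodels sperm chromatin, was at 18.7, 26.1 and 42.8 FPKM in spring GV and 19.6, 22.1 and 36.96 FPKM in spring MII oocytes. In summer it was at 31.05, 35.5 and 37.3 FPKM in GV and 10.2, 17.8 and 25.5 FPKM in MII oocytes, so that the stages overlapped in spring and not in summer. The difference was -0.78 (limma p = 0.0185, exact permutation p = 0.00904). For NLRP9, an oocyte-restricted NLR family gene, it was -0.86 (limma p = 0.0362, exact permutation p = 0.0536), and its spring and summer GV ranges of 2.66 to 4.48 and 4.62 to 10.6 FPKM did not overlap. Its p was over 0.05 in 13 of 36 alternative settings. The most abundant members had intervals that included 0: DPPA3 -0.14 (-0.92 to 0.64), OOEP -0.58 (-1.32 to 0.16) and OOSP1 0.15 (-0.58 to 0.88). ZAR1, required for the transition from oocyte to embryo, had the largest changes of the list, -2.32 in spring and -2.94 in summer, and a difference of -0.63 (95% interval -1.82 to 0.56). In all, 16 of 19 members (84.2%) had a negative difference, against 57.9% of all genes and 65.0% of those of at least 1 FPKM. The median of the list was -0.25, which was -0.20 after quantile normalization, -0.12 after median-of-ratios scaling and -0.13 without the libraries of low depth.

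Some called genes act on RNA, and they are described together with no count against a background, because no list of such genes was used. IK, a component of the spliceosome (chromosome 7, 53464181 to 53476407), stood at 4.30, 6.23 and 15.2 FPKM in spring GV and 21.4, 22.2 and 25.97 FPKM in spring MII oocytes, and at 7.69, 8.69 and 18.6 FPKM in summer GV and 10.6, 15.5 and 19.5 FPKM in summer MII oocytes. Every summer MII library lay below every spring MII library, and the highest GV values were those of the low-depth spring GV replicate 6 and summer GV replicate 2. The difference was -1.03 (SE 0.33, limma p = 0.00489, exact permutation p = 0.00201) and -0.86 (limma p = 0.00858) without summer GV replicate 2, below the 2-fold threshold. CWC25, another splicing factor (chromosome 19, 40029605 to 40039607), had 1.31, 4.56 and 7.34 FPKM in spring GV, 17.5, 20.8 and 25.2 in spring MII, 4.59, 6.85 and 9.80 in summer GV and 9.41, 12.1 and 25.8 FPKM in summer MII oocytes. Its level was higher in MII than in GV oocytes in both seasons, by 2.08 in spring and by 0.93 in summer, which left a difference of -1.15 (SE 0.38, limma p = 0.0063, exact permutation p = 0.00402). DKC1 encodes dyskerin, which pseudouridylates RNA and belongs to telomerase (chromosome X, 39037544 to 39049379). Its levels were 2.78, 5.81 and 10.4 FPKM in spring GV against 10.7, 15.9 and 19.9 FPKM in spring MII oocytes without overlap, and 6.09, 8.26 and 22.5 FPKM in summer GV against 6.46, 9.08 and 20.1 FPKM in summer MII oocytes with overlap. The difference was -1.28 (SE 0.42, limma p = 0.00591, exact permutation p = 0.00461). These 3 genes kept a p under 0.05 in all 36 alternative settings.

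ZNF830, a zinc finger gene of the early embryo that has been tied to splicing and DNA repair (chromosome 19, 15446156 to 15447897), differed in MII oocytes above all. Summer MII libraries held 9.40, 12.9 and 17.8 FPKM and spring MII libraries 25.6, 27.5 and 36.4 FPKM, with no overlap, whereas GV oocytes held 21.1, 26.5 and 35.3 FPKM in spring and 15.2, 28.97 and 97.2 FPKM in summer. The difference was -1.29 (SE 0.43, limma p = 0.00605, exact permutation p = 0.0087), and -0.97 (limma p = 0.00587) without summer GV replicate 2. FAM50A, a nuclear protein linked to splicing, likewise had all summer MII libraries (4.53 to 9.44 FPKM) below all spring MII libraries (10.9 to 17.8 FPKM). Its difference of -1.06 (limma p = 0.0475, exact permutation p = 0.0523) was -0.73 (limma p = 0.0955) without summer GV replicate 2, which held 48.5 FPKM against a group median of 12.1 FPKM.

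DDX24, a DEAD-box RNA helicase, and DNTTIP2, a nucleolar protein, were also called. DDX24 had medians of 5.95 and 21.9 FPKM in spring GV and MII oocytes and of 10.96 and 14.2 FPKM in summer, a difference of -1.09 (limma p = 0.0338, exact permutation p = 0.0369). It lost its call without summer GV replicate 2 (-0.87) and without the 3 low-depth libraries (-0.73), where its limma p was over 0.05. DNTTIP2 was the called gene whose GV libraries were fully apart, 3.30 to 5.21 FPKM in spring and 5.75 to 9.39 FPKM in summer. Its MII levels of 3.77, 15.7 and 24.6 FPKM in spring and 4.23, 8.60 and 25.8 FPKM in summer overlapped widely, and the difference was -1.16 (limma p = 0.03, exact permutation p = 0.0325), which was -0.94 (limma p = 0.146) after median-of-ratios scaling and -1.04 (limma p = 0.105) after quantile normalization.

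Genes of mRNA decay, which clears maternal transcripts during maturation, numbered 64, of which 39 (60.9%, against 57.9% of all genes) had a negative difference. Their median was -0.06, and 2 (3.13%, against 1.8% of all genes) were at p under 0.05. UPF3B, a factor of nonsense-mediated decay, had the third smallest limma p of all genes and the smallest permutation p of the named genes. Its levels were 0.137, 0.351 and 0.573 FPKM in spring GV, 0.427, 0.579 and 0.908 in summer GV, 1.97, 2.12 and 2.31 in spring MII and 0.59, 1.35 and 1.93 FPKM in summer MII oocytes. The summer MII libraries all lay below the spring MII libraries, and the difference of -0.76 (SE 0.21, limma p = 0.00138, exact permutation p = 8.43e-05) was under 2-fold. ZCCHC6 (now TUT7), which adds uridines to mRNA tails before decay, had a difference of -0.44 (limma p = 0.00514, exact permutation p = 0.00218) at a highest level of 1.26 FPKM.

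The meiotic spindle was represented by TUBG1 and CENPF among the called genes, both on the list of 81 spindle, kinesin and tubulin genes. TUBG1, the gamma-tubulin that nucleates microtubules (chromosome 19, 43316471 to 43321168), had 0.74, 4.12 and 7.71 FPKM in spring GV, 3.48, 6.92 and 9.34 in spring MII, 4.33, 5.28 and 9.03 in summer GV and 1.64, 3.00 and 7.22 FPKM in summer MII oocytes. All of these ranges overlapped, and the difference was -1.34 (SE 0.50, limma p = 0.0134, exact permutation p = 0.015). Without the 3 libraries of low depth it was -0.90 and no longer passed. CENPF, a large protein of the kinetochore, had medians of 3.99 and 19.95 FPKM in spring GV and MII oocytes and of 7.93 and 14.5 FPKM in summer. Its difference was -1.04 (limma p = 0.0307, exact permutation p = 0.0361), and -0.84 (limma p = 0.0627) without summer GV replicate 2. KIF2C, a kinesin that corrects faulty attachments of chromosomes, had 7.61 to 11.5 FPKM in spring MII and 4.63 to 6.88 FPKM in summer MII oocytes, which did not overlap, and a difference of -0.83 (limma p = 0.0423, exact permutation p = 0.0376) whose p was over 0.05 in 14 of 36 alternative settings. CENPT, of the inner kinetochore, had a difference of -0.79 (limma p = 0.0448, exact permutation p = 0.0269). Its levels were 0.01, 2.59 and 4.10 FPKM in spring GV and 2.86, 3.73 and 4.56 FPKM in summer GV oocytes. The part of the spring GV value at 0.01 FPKM in the CENPT difference was not tested, and no alternative settings are given for it. These 4 genes (4.94% of the list, against 1.8% of all genes) all had a lower change in summer. The list as a whole had a median of -0.08, which was -0.03 after quantile normalization and -0.01 after median-of-ratios scaling.

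Heat shock proteins and co-chaperones numbered 86, and 4 of them (4.65%, against 1.8% of all genes) had a p under 0.05, all with a lower change in summer. DNAJC9, a co-chaperone of histones (chromosome 28, 29452161 to 29456647), was called. It had 1.45, 2.55 and 4.34 FPKM in spring GV and 5.34, 6.89 and 10.1 FPKM in spring MII oocytes, ranges that did not overlap, and 3.54, 4.62 and 4.85 FPKM in summer GV and 3.55, 5.20 and 9.91 FPKM in summer MII oocytes, which did. The difference was -1.03 (SE 0.31, limma p = 0.00321, exact permutation p = 0.00276), and it was under 2-fold after median-of-ratios scaling (-0.83) and quantile normalization (-0.91). DNAJB12, a co-chaperone of the endoplasmic reticulum, had -0.35 (limma p = 0.0046, exact permutation p = 0.00123) at a highest level of 1.02 FPKM. DNAJC7 had -0.65 (limma p = 0.0132, exact permutation p = 0.00437) and HSPA9, the mitochondrial HSP70, had -0.43 (limma p = 0.0444, exact permutation p = 0.0245). The widest differences of the list did not pass: HSP90AA1, the inducible HSP90, had -1.20 (limma p = 0.116, exact permutation p = 0.131) and DNAJB9, a co-chaperone of the endoplasmic reticulum, had 1.23 (limma p = 0.164, exact permutation p = 0.197). Of the 86 genes, 55 (64.0%) had a negative difference, against 57.9% of all genes and 65.0% of those of at least 1 FPKM. The median was -0.09, against -0.03 for all genes and -0.11 for those of at least 1 FPKM, and it was -0.00 after median-of-ratios scaling.

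MESDC2 (now MESD), a chaperone of the endoplasmic reticulum for LRP5 and LRP6 receptors (chromosome 21, 27322043 to 27330424), had the smallest p of the called genes. Its levels were 2.17, 3.55 and 4.21 FPKM in spring GV, 3.22, 4.38 and 4.85 in spring MII, 3.64, 3.90 and 8.09 in summer GV and 1.41, 2.51 and 3.09 FPKM in summer MII oocytes. Summer MII libraries lay below all libraries of spring MII oocytes and of summer GV oocytes. The difference was -1.06 (SE 0.27, limma p = 0.000635, exact permutation p = 0.000155), with a 95% interval of -1.61 to -0.50, and it was -0.92 (limma p = 0.000942) without summer GV replicate 2 and -0.83 (limma p = 0.00537) after median-of-ratios scaling, both under the 2-fold threshold.

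The remaining called genes with a lower change in summer were MVP, CRH, RNF148, GCC2 and TMEM205. MVP, the main protein of the vault particle (chromosome 25, 26661751 to 26681332), was at 4.07, 7.12 and 14.2 FPKM in spring GV and 1.69, 3.28 and 6.35 FPKM in spring MII oocytes, and at 8.92, 16.96 and 30.2 FPKM in summer GV and 0.827, 2.52 and 4.86 FPKM in summer MII oocytes, where the stages did not overlap. The difference was -1.31 (SE 0.47, limma p = 0.0107, exact permutation p = 0.0149), and -1.01 (limma p = 0.0522) without the 3 low-depth libraries. CRH, corticotropin-releasing hormone, had medians of 27.6 and 50.8 FPKM in spring and of 28.4 and 21.8 FPKM in summer in GV and MII oocytes, a difference of -1.04 (limma p = 0.0292, exact permutation p = 0.0457) that was -0.78 (limma p = 0.109) after median-of-ratios scaling. RNF148, a RING finger gene, had a difference of -1.33 (limma p = 0.0294, exact permutation p = 0.0324) that was -0.60 (limma p = 0.106) without the low-depth libraries. For GCC2, a golgin of the trans-Golgi network, it was -1.04 (limma p = 0.0361, exact permutation p = 0.0396) and -0.82 (limma p = 0.0748) without summer GV replicate 2. TMEM205, a membrane protein, had -1.25 (limma p = 0.0195, exact permutation p = 0.02), and 1 low-depth library, spring MII replicate 6, held 15.4 FPKM of it against a group median of 3.01 FPKM. Without the 3 low-depth libraries its difference was -0.85, under 2-fold.

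The 3 genes with a higher change in summer rested on few or uneven values. MAPRE2, a protein that binds growing microtubule ends, is listed at 2 loci, and the called locus spans chromosome 2, 21117911 to 21119284 on UMD3.1.1. It was above 0.01 FPKM in 5 spring GV, 1 summer GV, 5 spring MII and 6 summer MII libraries, and its levels were 0.01, 32.7 and 88.2 FPKM in spring GV, 0.01, 56.4 and 141 in spring MII, 0.01, 0.01 and 56.1 in summer GV and 30.4, 68.01 and 107 FPKM in summer MII oocytes. The locus on chromosome 24 (22190114 to 22306885) was above 0.01 FPKM in the other 7 libraries, never together with the first and never over 1.51 FPKM. How the fragments were shared between the loci is not given, so both values are uncertain. The difference was 4.44 (limma p = 0.0102, exact permutation p = 0.0277) at the called locus. For the sum of both loci it was 3.77, but FPKM is scaled by exon length and the other locus never passed 1.51 FPKM. The sum thus follows the called locus, and it cannot tell whether a difference remains if fragments moved between the loci. At the called locus 5 of the 6 summer GV libraries stood at 0.01 FPKM, where the other groups had at most 1 such library.

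C15H11orf96, an open reading frame without an assigned role (chromosome 15, 74915918 to 74917298), had 0.15, 3.31 and 6.17 FPKM in spring GV, 0.161, 0.589 and 1.73 in spring MII, 0.01, 0.525 and 1.30 in summer GV and 0.01, 0.741 and 2.59 FPKM in summer MII oocytes. The steps of its values correspond to 0 to 120 fragments per library, and the difference was 1.45 (SE 0.56, limma p = 0.0159, exact permutation p = 0.0298), or 1.23 (limma p = 0.0554) without the 3 low-depth libraries. MIR10B, the gene of a microRNA in the HOXD cluster (chromosome 2, 20797606 to 20797705), had 1.61, 4.57 and 51.7 FPKM in spring GV and 0.01 FPKM in all 6 spring MII oocyte libraries. Summer levels were 0.01, 1.77 and 4.97 FPKM in GV and 0.01, 0.502 and 1.805 FPKM in MII oocytes. These values correspond to 1 to 7 fragments per library in spring GV, 0 to 10 in summer GV, 0 in spring MII and 0 or 1 in summer MII oocytes, and 3 fragments of the low-depth spring GV replicate 6 are listed as 51.7 FPKM. The difference was 1.91 (limma p = 0.0183, exact permutation p = 0.0135), and no fold is read from it because spring MII oocytes were at the lowest value. Libraries of captured mRNA do not measure the mature microRNA.

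Below 2-fold, the smallest p among higher differences belonged to SMDT1, a subunit of the mitochondrial calcium uniporter. It had 0.976, 1.28 and 3.30 FPKM in spring GV and 0.54, 0.769 and 0.841 FPKM in summer GV oocytes, which did not overlap, and 0.01, 0.0627 and 0.172 FPKM in spring MII and 0.01, 0.124 and 0.334 FPKM in summer MII oocytes. Its change was -1.20 in spring and -0.60 in summer, a difference of 0.60 (SE 0.19, limma p = 0.00528, exact permutation p = 0.000452). The MII values correspond to 0 to 5 fragments per library in spring and 0 to 12 in summer. GPR62, a G protein-coupled receptor, showed the same order with medians of 2.01 and 0.077 FPKM in spring and 0.69 and 0.102 FPKM in summer, a difference of 0.86 (limma p = 0.0104, exact permutation p = 0.02). PNMA1, first known as an antigen in paraneoplastic disease, had 0.59 (limma p = 0.0123, exact permutation p = 0.0139) and DCAF11, a substrate receptor of ubiquitin ligases, had 0.15 (limma p = 0.0143, exact permutation p = 0.0152), both with every library at or under 1.22 FPKM. On the lower side, TTC1, a tetratricopeptide protein, had -0.83 (limma p = 0.00253, exact permutation p = 0.00131), with ranges of 3.42 to 4.80 FPKM in summer GV and 1.20 to 2.44 FPKM in summer MII oocytes that did not overlap. PTAFR, the receptor of platelet-activating factor, had the smallest limma p of all genes at -0.54 (limma p = 0.000544, exact permutation p = 0.00168), but its values correspond to 0 to 10 fragments per library.

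Lists of genes for energy, protein synthesis and cell cycle control gave no or few members past the threshold, at shares from 0% to 2.27% against 1.8% of all genes. Among 77 genes of the mitochondrial ribosome, 45 (58.4%, against 57.9% of all genes) had a negative difference. The median was -0.08 and 0 had a p under 0.05 (limma), and the median turned to 0.11 after median-of-ratios scaling. Of 44 genes of complex I, which passes electrons from NADH, 1 passed, NDUFA9 at -0.53 (limma p = 0.0382, exact permutation p = 0.0467), with a median of -0.00. The 61 genes of complexes II to V had a median of -0.04 and 0 genes at p under 0.05. The cytosolic ribosome was a list with a positive median, 0.10 over 84 genes, of which 51 were positive and 33 (39.3%, against 57.9% of all genes) negative. The median stayed at 0.10 after quantile normalization and was 0.34 after median-of-ratios scaling. None of its members had a p under 0.05, and the smallest limma p was 0.0571. Translation initiation and elongation factors (61 genes) had a median of -0.11 and 0 genes at p under 0.05. The 60 genes for cell cycle kinases, cyclins, the anaphase-promoting complex and checkpoints, which drive meiotic resumption and the arrest at metaphase, had a median of -0.12 and 0 at p under 0.05. Of these, 41 (68.3%) had a negative difference, against 57.9% of all genes and 65.0% of those of at least 1 FPKM.

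Proteasome genes (47) had a median of -0.06 and 2 members at p under 0.05 (4.26%, against 1.8% of all genes), each of which had a p over 0.05 in 20 of 36 alternative settings. PSMG1, a proteasome assembly chaperone, had medians of 6.80 and 24.6 FPKM in spring GV and MII oocytes and of 9.18 and 20.2 FPKM in summer, a difference of -0.59 (limma p = 0.046, exact permutation p = 0.0297). PSMD4, the ubiquitin receptor of the proteasome, had -0.80 (limma p = 0.0483, exact permutation p = 0.0458). Antioxidant and glutathione genes (53) had a median of -0.01 and 2 members at p under 0.05 (3.77%), the peroxide-reducing enzymes PRDX1 at -0.79 (limma p = 0.0385, exact permutation p = 0.0361) and PRDX6 at -0.81 (limma p = 0.0434, exact permutation p = 0.0379), whose p was over 0.05 in 15 and 17 of 36 alternative settings. Medians of PRDX1 were 31.4 and 76.4 FPKM in spring GV and MII oocytes and 52.8 and 58.1 FPKM in summer. TXN, thioredoxin, had a difference of 1.06 that did not pass (limma p = 0.0698, exact permutation p = 0.0842).

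Mitophagy and mitochondrial dynamics (58 genes, median -0.05) had 3 members at p under 0.05 (5.17%, against 1.8% of all genes), all lower. They were the autophagy receptors CALCOCO2 at -0.64 (limma p = 0.0118, exact permutation p = 0.0101) and OPTN at -0.73 (limma p = 0.0159, exact permutation p = 0.013), and HAX1, a mitochondrial protein that protects from cell death, at -0.71 (limma p = 0.0492, exact permutation p = 0.04). HAX1 had changes of -2.86 in spring and -3.56 in summer, from 36.6 to 3.98 FPKM and from 38.6 to 2.41 FPKM in median, and its p was over 0.05 in 24 of 36 alternative settings. Apoptosis regulators (32 genes, median -0.04), DNA methylation enzymes (11 genes, median -0.00), cholesterol and steroid biosynthesis (40 genes, median -0.00) and pluripotency factors (8 genes, median 0.00) had 0 members at p under 0.05 (limma). After median-of-ratios scaling the negative medians given above turned positive, except those of the growth factor and zona pellucida, maternal effect, heat shock, cell cycle and spindle lists.

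**Figure D4:**
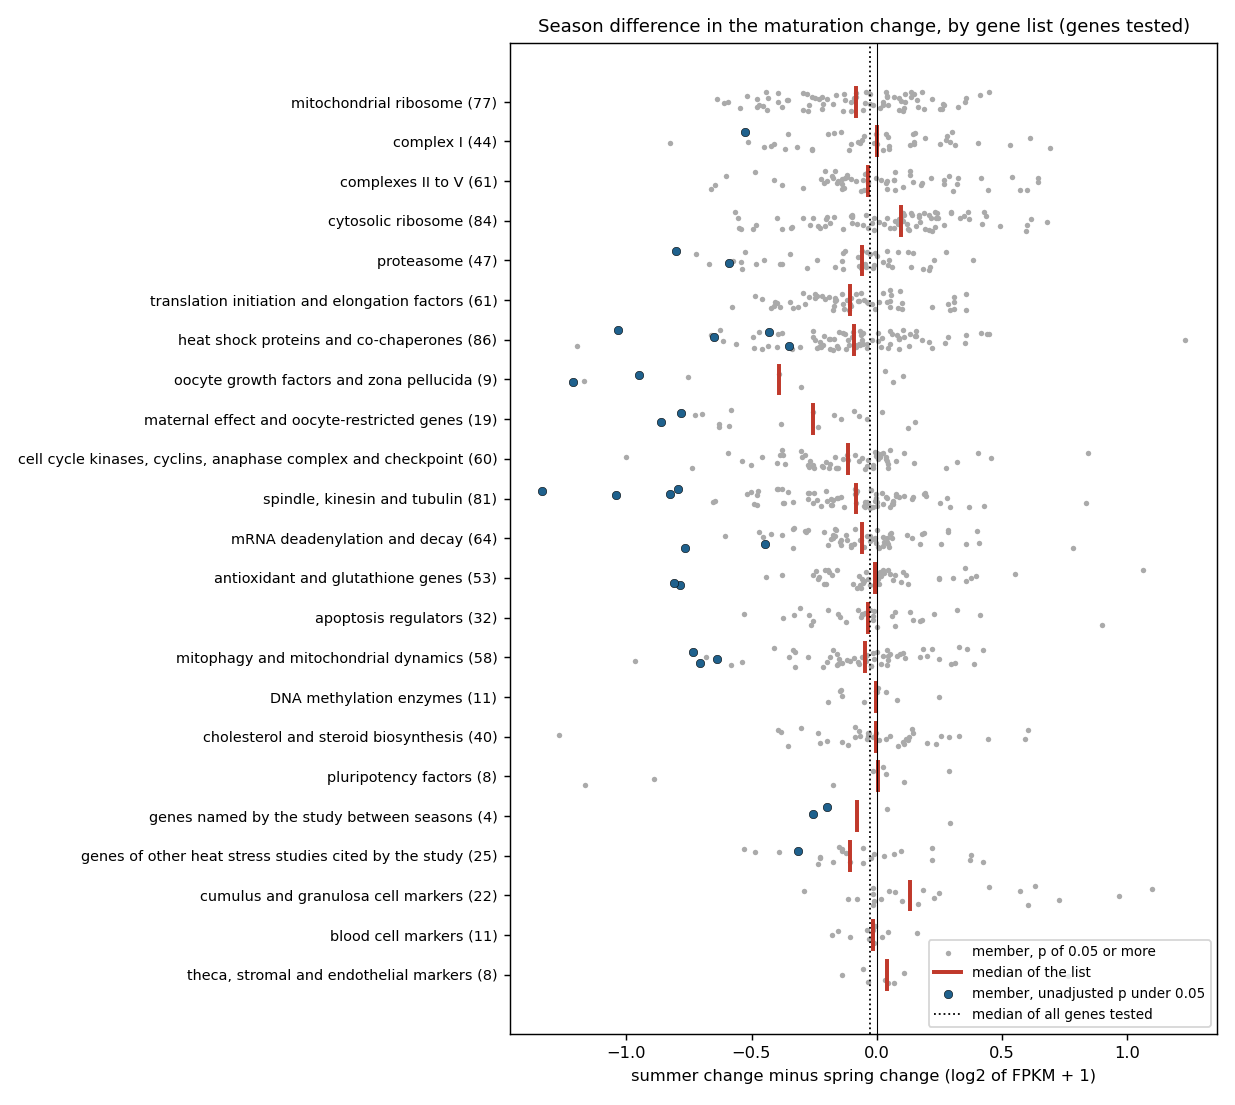
Season difference of each member (points) of 23 gene lists on the log2(FPKM + 1) scale, with members at an unadjusted limma p under 0.05 in blue, the median of each list in red and the median of all 9526 genes (-0.03) as a dotted line. Blue points are few and all lie on the negative side, and the medians lie between -0.39 for oocyte growth factors and the zona pellucida and 0.13 for cumulus and granulosa cell markers; most medians below 0 turned positive after median-of-ratios scaling.

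Among the genes that the study itself named between seasons on these samples, which are therefore no independent evidence, 4 were tested and BHLHE41 was under the filter. GATAD2B, of a chromatin-remodelling complex, had 0.01, 0.0208 and 0.0723 FPKM in spring GV, 0.127, 0.152 and 0.381 in spring MII, 0.0228, 0.0659 and 0.127 in summer GV and 0.01, 0.0769 and 0.17 FPKM in summer MII oocytes, a difference of -0.20 (limma p = 0.00512, exact permutation p = 0.00293). RAB39B, a small GTPase of vesicle traffic, had medians of 0.119 and 0.0708 FPKM in spring and of 0.184 and 0.01 FPKM in summer, a difference of -0.25 (limma p = 0.028, exact permutation p = 0.00187). The pseudocount of 1 compresses differences at such levels, and the fragments behind them numbered 0 to 23 per library for GATAD2B and 0 to 51 for RAB39B. E2F8, a repressor of the cell cycle, had 0.04 (95% interval -0.05 to 0.13, limma p = 0.346, exact permutation p = 0.415) and FBXO44, an F-box protein, had 0.29 (95% interval -0.17 to 0.76, limma p = 0.203, exact permutation p = 0.302). Of 25 genes that the study cites from other heat stress work, 17 (68.0%, against 57.9% of all genes) had a negative difference. The median was -0.11 (0.01 after median-of-ratios scaling) and 1 (4.0%, against 1.8% of all genes) had a p under 0.05, the cell adhesion gene CDH1 at -0.31 (limma p = 0.0192, exact permutation p = 0.0212).

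Markers of other cells had no member at p under 0.05. The 22 tested markers of cumulus and granulosa cells had a median of 0.13, with 15 positive and 7 negative differences (31.8% negative, against 57.9% of all genes). The median was 0.22 without the 3 low-depth libraries. Of all 28 such markers, 9 were above 0.01 FPKM in every library, KRT8 (group medians of 18.02 to 26.9 FPKM), STAR (14.8 to 24.5 FPKM), PTGS2 and KRT18 among them, and 8, FSHR and AREG among them, were at 0.01 FPKM in most libraries. The 11 blood cell markers had a median of -0.01 (0.04 after median-of-ratios scaling) and the 8 markers of theca, stroma and endothelium a median of 0.04.

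The calls shifted with single libraries. Summer GV replicate 2, of relative depth 0.488, was the highest library of its group in 12 of the 17 genes with a lower change. Without it 15 genes were called, 12 of them among the 20, and the calls of MESDC2, IK, ZNF830, RNF148, CENPF, DDX24, GCC2 and FAM50A were lost, the first 3 by size only. Spring GV replicate 6, of relative depth 0.0702, was the highest of its group in 8 of the 17 genes, and 41 genes were called without it, 36 lower and 5 higher. Without summer MII replicate 6 there were 38 calls, and without spring GV replicate 2 there were 31. Leaving out all 3 low-depth libraries gave 21 calls, 18 lower and 3 higher, with 12 among the 20, and MESDC2 (-0.95), MVP, TUBG1 (-0.90), C15H11orf96, TMEM205, RNF148, DDX24 and FAM50A (-0.92) were not called. The adjusted threshold was passed by 0 genes each time with limma, with 134 to 307 genes at an unadjusted p under 0.05 when 1 library was left out, and all 20 genes kept the sign of their difference in every fit.

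**Figure D5:**
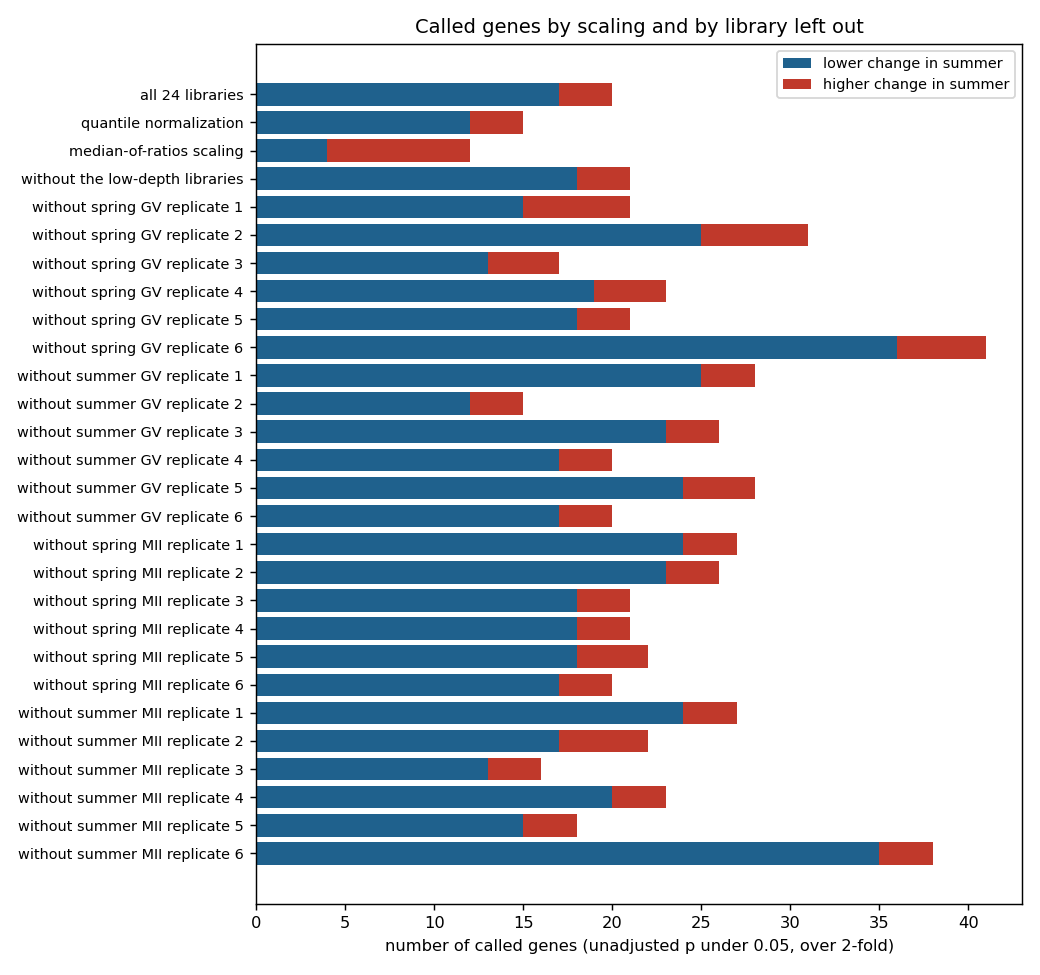
Number of called genes with a lower (blue) and a higher (red) change in summer on all 24 libraries, under 2 other scalings, without the 3 low-depth libraries and without each library in turn. The total runs from 12 with median-of-ratios scaling to 41 without spring GV replicate 6, and lower changes are the larger part in every bar except median-of-ratios scaling.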

How the data were processed

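Smart-seq2 libraries of 24 oocyte pools were sequenced by the authors, who trimmed the reads, aligned them to the bovine genome UMD3.1.1 (UMD3.1 per the labels) with STAR 2.5.3a and computed FPKM. The deposited FPKM values share 1 column total and have a minimum of 0.01; these steps are not given in the sources used here. Partek, which the authors used for testing, was not used here.

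For the 9526 genes over 0.1 FPKM in at least 1 library, log2(FPKM + 1) was fitted with limma 3.58.1 (R 4.3.3) on 4 group means without covariates, with moderation along mean expression. The contrast was (summer MII - summer GV) - (spring MII - spring GV). Genes were called at an unadjusted p under 0.05 and over 2-fold, as in the study, and Benjamini-Hochberg adjusted p were counted beside them. Named genes (all called genes, the 5 smallest p in each direction, up to 3 members per list at p under 0.05, the study's genes and oocyte markers) also had an exact permutation test. HSPA9, CENPT and members with wide intervals were named after their values were seen. The members and lists were chosen with earlier results of these data known. The 29 symbols at 2 loci were kept as separate entries. Symbols were checked in the RefSeq gene table of another assembly, where all 50 named entries matched and 2 are renamed.

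Relative depth came from the steps between low values: of 12180 values, 92.8% were whole multiples to within 0.1, against 20% by chance. Gene counts per library are otherwise unknown and no counting interval is given. The fit was tested on simulated data. The p-values measure the spread between these pools, which the fit and the permutation test took as independent although some may share a cow. Alternatives were other pseudocounts, filters, scalings, spread models, a replicate block, the ratio of group means, the adjusted threshold, and leaving out libraries.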

Additional observations from a re-analysis of the deposited data

Results flagged for a closer look

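A library far from the other 5 of its group, by a gap above Dixon's critical value for 6 samples, was found in 17 of the 80 gene groups of the 20 called genes and in 4 of 8 groups for depth and genes detected. For independent groups of normally spread values about 1 in 20 would be flagged. The 20 genes were chosen by the contrast and share the same libraries, and no share over all genes is given here.

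Summer GV replicate 2 stood high for IK (18.6 FPKM), DKC1 (22.5 FPKM), CENPF (18.7 FPKM), GCC2 (5.90 FPKM) and FAM50A (48.5 FPKM). Its relative depth was 0.488, and without it IK, CENPF, GCC2 and FAM50A were not called. Spring GV replicate 6 stood high for IK (15.2 FPKM) and for MIR10B (51.7 FPKM, 3 fragments), and its 8738 genes above 0.01 FPKM were far below the other spring GV libraries. Spring MII replicate 6 stood apart for TMEM205 (15.4 FPKM, high) and DNTTIP2 (3.77 FPKM, low), for its relative depth of 0.185 and for its 8158 genes above 0.01 FPKM. Summer GV replicate 5 had a relative depth of 8.08.

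The other values were found in libraries of ordinary depth, except summer GV replicate 3 with a relative depth of 2.72. MESDC2 was low in spring GV replicate 5 (2.17 FPKM), DNAJC9 was low in summer GV replicate 4 (3.54 FPKM), ZP2 was high in spring MII replicate 5 (185 FPKM), and spring MII replicate 1 was high for ZNF830 (36.4 FPKM) and low for GCC2 (2.77 FPKM). MAPRE2 at its locus on chromosome 2 was listed at 0.01 FPKM in spring GV replicate 4 and in spring MII replicate 3, and at 56.1 FPKM in summer GV replicate 3, where the other 5 summer GV libraries were at 0.01 FPKM.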

How the results depend on the processing

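On the deposited values 20 genes were called, 171 had an unadjusted p under 0.05 and 0 an adjusted p under 0.05. The number of calls moved by over 1.5 times with a pseudocount of 0.1 (96), with none (191), with median-of-ratios scaling (12) and with the adjusted threshold (0). With a smaller pseudocount more low genes pass 2-fold, and the median difference of all genes was -0.11 at 0.1 and -0.21 without one. Genes at p under 0.05 numbered 71 with a mean of at least 1 FPKM (3665 genes tested), 550 with sample quality weights and 276 without the 3 low-depth libraries. Sample quality weights gave 1 gene at the adjusted threshold, IK (limma adjusted p = 0.0436), where the smallest adjusted p of the other alternatives ran from 0.157 to 1.0. With 1 library left out, calls ran from 15 to 41, genes at p under 0.05 from 134 to 307 and genes at the adjusted threshold from 0 to 0. The other alternatives left the 3 counts within 1.5 times. Of 720 comparisons of a called gene with an alternative, 649 kept p under 0.05, 71 did not and 0 changed sign, and 9 genes kept it in all 36 settings. Of 1787 comparisons over all named genes, 1 changed sign: E2F8 had -0.11 without a pseudocount.

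Replicate numbers were not taken as pairs, because the labels do not say what they mark and in no 2 groups did every same-numbered pair correlate over 0.1 in its deviations (range -0.44 to 0.76). The data give a partial hint of pairing: the mean correlation was 0.34 for the same number against -0.05 for other numbers between the MII groups, where 4 of 6 libraries correlated best with their own number, and 0.23 against -0.03 (3 of 6) between the summer groups. With the replicate number as a block over all groups 23 genes were called and 232 had p under 0.05, and with a block within season 23 and 246.

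For genes of at least 1 FPKM the median half-width of the 95% interval was 0.87, and 35.7% of them were bounded within 2-fold. No count table was used here, so depth was given as a ratio between libraries. The paper states an approximate number of reads per sample and refers to a supplementary table, and the ratios were not compared with it.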
